A study of Mus musculus with 4 samples.

Results

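The first-intron peaks of protein-coding genes are the RREB1-3V5 ChIP peaks that the deposited annotation places in the first intron of a transcript and assigns to a protein-coding gene. They were taken as the rows whose gene type is protein-coding and whose annotation names intron 1, which gave 215 of the 1933 listed peaks. RREB1 was measured by chromatin immunoprecipitation and sequencing (ChIP-seq) in mouse cerebellum, and the question was which genes it binds in Purkinje cells, the output neurons of the cerebellar cortex. All animals carried Tg(PCP2-Rreb1/3V5)20/J, a transgene in which the Purkinje cell promoter of PCP2 drives Rreb1 with 3 V5 tags, and they were 3 weeks old. There were 2 ChIP libraries made with a V5 antibody from animals of either sex (1 female, 1 male), with 2 input libraries of sheared DNA set aside before the antibody step. No animal without the transgene was among them, the mice came from a single transgenic line, and the chromatin came from lysate of whole cerebellum, so only the tag restricts the signal to cells that express the transgene. The table holds merged peaks of the libraries, each as a single position with the nearest gene, and no height, count or value of a single library. It has 1 row per gene. The merged peaks are numbered up to 3043, and 1110 of those numbers are not listed, so each share and each number of peaks per Mb below is over the listed peaks only. Depth, agreement between the animals and the labelled tissue could therefore not be checked from it, and every interval and p-value given here measures counting error over peaks, not the spread between animals.

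The first intron starts at the first splice site after the promoter, is usually the longest intron of a gene, and often holds enhancers and alternative promoters. RREB1 is a zinc finger protein that was described through Ras-responsive elements and binds C-rich DNA in other tissues. The E-box is a short site with the outer letters CA and TG that is bound by basic helix-loop-helix factors. The form CATCTG, or CAGATG on the other strand, is preferred by neurogenic factors such as NEUROD1, which granule cells express at high level. The study names NEUROD1 as a known cofactor of RREB1. NFI proteins, the nuclear factor I family, bind TTGGCA or a palindrome that holds it on either side, and act in the maturation of granule neurons. An E-box of the form CATCTG is called the NeuroD E-box here, and TTGGCA or its reverse the NFI short site, as names for the letters and not for the factor bound.

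The sequences of members show how close these letters lay to the listed position. Each line gives 61 bases of the GRCm38 reference (mm10) centred on the position and written 5′ to 3′ on the strand of the gene, with each match to the NeuroD E-box in capitals. The first 7 have such a match within 20 bp of the position. They were chosen because they lead their gene list by distance or hold the most matches. Dlg2 and Cep97 are shown as members without one.

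Cbfa2t3: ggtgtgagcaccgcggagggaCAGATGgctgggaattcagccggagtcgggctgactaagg
Dnm1: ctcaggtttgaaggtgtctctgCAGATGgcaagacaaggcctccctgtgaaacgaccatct
Map3k1: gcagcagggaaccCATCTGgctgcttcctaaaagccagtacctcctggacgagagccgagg
Nrros: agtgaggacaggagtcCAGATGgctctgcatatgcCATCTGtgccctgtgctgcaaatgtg
Sez6: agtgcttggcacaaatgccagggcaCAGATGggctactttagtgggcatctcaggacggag
Syt2: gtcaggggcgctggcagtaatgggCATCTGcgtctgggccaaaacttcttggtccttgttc
Ttyh2: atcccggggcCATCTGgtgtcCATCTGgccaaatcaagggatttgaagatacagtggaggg
Dlg2: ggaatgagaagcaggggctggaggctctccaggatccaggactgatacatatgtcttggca
Cep97: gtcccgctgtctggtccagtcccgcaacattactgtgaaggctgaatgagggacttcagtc

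These windows lie in introns and overlap no exon. Cbfa2t3, a transcriptional corepressor, is at chr8:122677158-122677218 on the minus strand. Dnm1, the dynamin that cuts synaptic vesicles from the membrane, is at chr2:32344209-32344269 on the minus strand. Map3k1, a kinase above JNK signalling, is at chr13:111792708-111792768 on the minus strand, and Nrros, a transmembrane protein that handles latent TGF-beta, is at chr16:32154495-32154555 on the minus strand. Sez6, a neuronal membrane protein that shapes dendrites and synapses, is at chr11:77950917-77950977 on the plus strand. Syt2, a fast calcium sensor of transmitter release, is at chr1:134723126-134723186 on the plus strand, and Ttyh2, a membrane protein of the tweety family, is at chr11:114685218-114685278 on the plus strand. Dlg2, the postsynaptic scaffold PSD-93, is at chr7:91284321-91284381 on the plus strand, and Cep97, a centrosomal protein that restrains cilia, is at chr16:55934526-55934586 on the minus strand.

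A second set holds the NeuroD E-box and the NFI short site together. In the next 5 windows of the same length both motifs lie within 25 bp of the position, and both are in capitals. These members were chosen after their values were seen.

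Ap3b1: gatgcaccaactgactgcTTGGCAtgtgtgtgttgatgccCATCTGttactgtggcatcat
Otud7a: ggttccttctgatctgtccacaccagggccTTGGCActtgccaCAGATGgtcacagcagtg
St8sia1: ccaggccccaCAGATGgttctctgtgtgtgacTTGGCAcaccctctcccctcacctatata
Tulp4: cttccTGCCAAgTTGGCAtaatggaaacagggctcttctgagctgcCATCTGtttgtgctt
Rag1: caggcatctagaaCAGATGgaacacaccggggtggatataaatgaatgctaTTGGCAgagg

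Ap3b1, a subunit of the adaptor complex that sorts cargo to lysosomes, is at chr13:94376103-94376163 on the plus strand. Otud7a, a deubiquitinase, is at chr7:63508244-63508304 on the plus strand, and St8sia1, a ganglioside sialyltransferase, is at chr6:142925512-142925572 on the minus strand. Tulp4 is at chr17:6118993-6119053 on the plus strand, and Rag1, a recombinase of lymphocytes, is at chr2:101649172-101649232 on the minus strand. In the Otud7a window the NFI short site was 2.5 bp and the E-box 15.5 bp from the position.

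The members lay at a wide range of distances from a start. The median absolute distance to the nearest transcription start was 10.5 kb, with a 95% interval of the median of 8.38 to 13.9 kb and quartiles of 2.68 and 27.5 kb. The median was 34.1 kb for the 318 peaks in later introns and 54.2 kb for the 398 intergenic peaks, an order that the annotation classes set in part. Within 1 kb of the start there were 32 members, between 1 and 5 kb 42, between 5 and 20 kb 71, between 20 and 100 kb 59 and beyond 100 kb 11. A position counts as promoter in the annotation if it lies at most 1 kb before or 100 bp after a start, and the nearest member was 267 bp away. That member belonged to Tbce, a chaperone that folds tubulin, followed by Map2 at 277 bp, Cep97 at 292 bp and Rag1 at 330 bp. Map2 encodes the microtubule-associated protein of dendrites. The most distant members were Kirrel3, a synaptic adhesion molecule, at 282.8 kb, Lsamp, a cell adhesion protein of limbic neurons, at 244.5 kb, Erbb4, the neuregulin receptor, at 221.1 kb, and Dlg2 at 193.6 kb.

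The introns that held members were long. Their median length was 33.7 kb, with quartiles of 13.8 and 85.3 kb, beside 3.03 kb over the first introns of 18855 protein-coding genes. The longest belonged to Kcnip4, a potassium channel partner, at 802.6 kb, Lsamp at 801.3 kb, Fgf14, an intracellular regulator of sodium channels, at 540.2 kb, and Grip1, a scaffold of AMPA receptors, at 475.5 kb. The shortest belonged to Porcn, the acyltransferase of Wnt proteins, at 641 bp, Bnipl at 702 bp, Fis1, a mitochondrial fission protein, at 770 bp, and Krt24, a keratin, at 968 bp. The share of genes with a member was higher in each longer class, from 0.198% (95% Wilson interval 0.108 to 0.364) of genes whose first intron is at most 1 kb to 11.1% (8.43 to 14.5) of those above 100 kb. Per length of these introns the order was the opposite. Genes with a first intron of at most 1 kb had 4.33 members per Mb of it, those between 30 and 100 kb 0.892, and those above 100 kb 0.578. The classes used the transcript with the longest span for each gene, and a member can lie in the first intron of another transcript. The class of at most 1 kb held 10 members, though after Krt24 the next intron that held a member was 1.10 kb long, in P3h3. The value for that class therefore does not describe members inside introns so short.

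Of the 533 peaks in introns of protein-coding genes, the members were 40.3% (95% Wilson interval 36.3 to 44.6), while first introns make up 26.3% of the intron bases. That is 0.882 members per Mb of first intron, beside 0.467 peaks per Mb of later intron. These bases are of the transcript with the longest span per gene, while a member can lie in another transcript. With peaks and bases both counted over any protein-coding RefSeq transcript, first introns held 42.4% of intron peaks and 29.1% of the bases. Among peaks beyond 5 kb of the start, first introns held 32.0% of intron peaks and 22.5% of the bases. These shares are descriptions with no test.

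Along the intron, counted from its 5′ end, 71 members lay in the first 25% of the length, 51 between 25 and 50%, 49 between 50 and 75% and 44 beyond. The first 25% held 33.0% (27.1 to 39.6) of the members. Within 1 kb of the 5′ end of the intron there were 39 members, and within 1 kb of its 3′ end 19. The deposited distance was upstream of the nearest start for 17 members, because a downstream start of the same gene or of another gene was nearest. Of these, 9 lay in an intron of the gene they name. Nfia, an NFI family gene, was an example, 5.37 kb upstream of its nearest start and 94.6% along an intron of 201.0 kb. The plot of distance and place in the intron shows both views of the members.

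**Figure D1:**
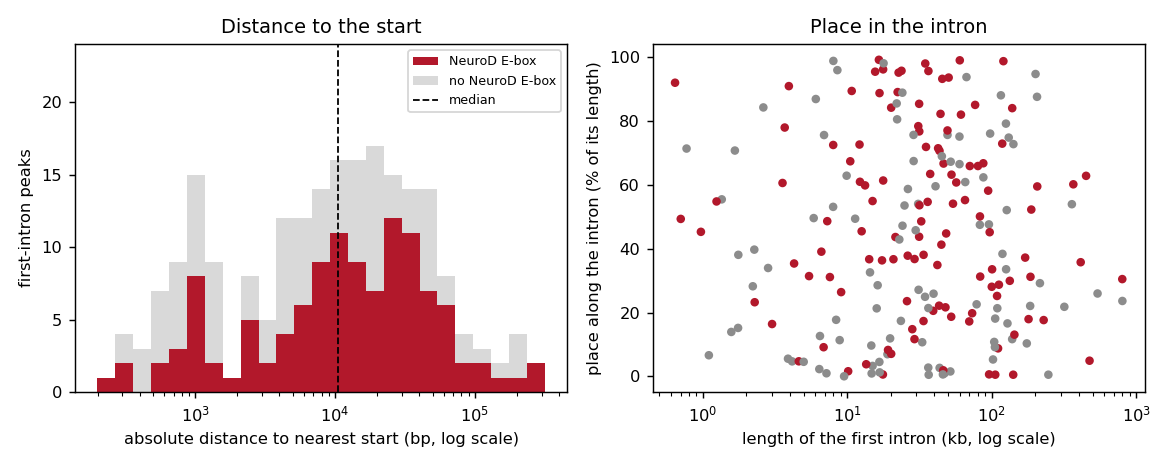
Left, the number of first-intron peaks by absolute distance to the nearest transcription start (bp, log scale), split by whether a NeuroD E-box lies in the 200 bp around the position, with the median of 10.5 kb as a dashed line. Right, the place of each member along its intron (% of the length from the 5′ end) against the length of the intron (kb, log scale), in red with and in grey without a NeuroD E-box.

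The annotation takes the intron and the nearest start separately, and 206 members lay in an intron of the gene they name. The other 9 lay in the first intron of another gene, 6 of them protein-coding and 3 noncoding. Kcnk3, a background potassium channel, was named for a position 1.51 kb upstream of its start, in an intron of Gm9899. Nr2f1, a nuclear receptor, was named for a position 2.88 kb upstream, in A830082K12Rik. Slc35e1 was named for a position in Med26, a subunit of Mediator, 8.25 kb upstream. Echdc3 was named for one in A230108P19Rik at 13.6 kb upstream, and Gm5820 for one in Fgf1, a fibroblast growth factor, 13.6 kb upstream. None of the 215 positions lay in an exon of a protein-coding RefSeq transcript and 1 lay at the promoter of another transcript. Exons of noncoding transcripts were not part of this count.

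Starts were also counted in the GENCODE annotation, which lists more transcripts. Within 1 kb of such a start lay 41 members (19.1%, 14.4 to 24.8), and 10 of the 41 were more than 1 kb from a RefSeq start. First introns lie near a start by definition, so these counts are a description. Bdnf, the neurotrophin with many alternative first exons, was a member at 1.08 kb from its start and 1.93% along its intron, named here after its values were seen. Its window had a GC content of 63.0% and 1 NeuroD E-box at 84.5 bp from the position.

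Members were rich in the NeuroD E-box and in the NFI short site compared with the DNA beside them. Each member's 200 bp window was compared with the window 1 kb further into the same gene, for 28 motifs searched on both strands. The NeuroD E-box was in 116 members (54.0%, 95% Wilson interval 47.3 to 60.5) and in 30 flanks (14%, 9.95 to 19.2). It was in the member alone for 104 pairs and in the flank alone for 18 (exact McNemar test, adjusted p = 9.49e-15). With the C before it, CCATCTG, it was in 47.0% of members and 3.72% of flanks, a ratio of 12.6 (exact McNemar test, adjusted p = 1.43e-23). CCATCTG holds CATCTG, so these 2 are not separate findings. Over all 1205704 windows of 200 bp in first introns, CATCTG was in 14.7% and CCATCTG in 4.17%. An enrichment of this E-box over all peaks was known beforehand, so its value here describes where it was found and is no independent support.

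The NFI short site was in 75 members (34.9%, 28.8 to 41.5) and 10 flanks (4.65%, 2.55 to 8.35), a ratio of 7.50. It was in the member alone for 71 pairs and in the flank alone for 6 (exact McNemar test, adjusted p = 3.19e-14), and it was in 9.80% of all first-intron windows. The main flank was poor in this site. With the flank towards the start it was in 20 flanks (9.30%), and with the flank 5 kb into the gene in 24 (11.2%). The ratio was lower with both, and both passed. The full palindrome of NFI, TGGC and GCCA with 5 bases between them, was much rarer. It was in 5 members and 2 flanks (exact McNemar test, p = 0.453). The 95% interval in members was 0.997 to 5.33%, and no difference was detectable at these counts.

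In all, 5 of 28 motifs passed the threshold, a percentage of 17.9, and 8 had an unadjusted p under 0.05. The other 2 beside the 3 above were the ZIC motif CAGCAGG, named for zinc finger factors of granule neurons, and the CTCF core CCANNAGG, part of the site of the insulator protein. ZIC was in 41 members (19.1%) and 13 flanks (6.05%, exact McNemar test, adjusted p = 0.000893). The CTCF core was in 48 members (22.3%) and 21 flanks (9.77%, exact McNemar test, adjusted p = 0.00409). In windows of 100 bp the CTCF core did not pass (exact McNemar test, adjusted p = 0.126). In 10 of these 48 members the CTCF core match overlapped a ZIC match. GC content moved with these results. Members had a median GC of 54.0% and their flanks 47.0%, and 173 members were above their own flank.

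Pairs with similar composition were therefore compared in an alternative added after seeing the data. In the 70 pairs whose GC differed by at most 5 percentage points, the NeuroD E-box was in 44 members (62.9%) and 7 flanks (10.0%, exact McNemar test, adjusted p = 4.23e-08). The NFI short site was in 29 members (41.4%) and 4 flanks (5.71%, exact McNemar test, adjusted p = 3.89e-06). ZIC was in 11 members and 9 flanks (exact McNemar test, unadjusted p = 0.824) and the CTCF core in 15 and 10 (unadjusted p = 0.359), and neither passed. The part of GC content in the 2 lost calls was not tested further, and fewer pairs entered.

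The C-rich letters linked to RREB1 showed no such difference. CCCCACC was in 12 members (5.58%) and 18 flanks (8.37%, exact McNemar test, unadjusted p = 0.307), and CCCACCA in 11 members (5.12%) and 8 flanks (3.72%, unadjusted p = 0.648). CCCCACC was in 4.95% of all first-intron windows. No match says only that these letters are absent from the window.

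Among the 10 possible E-box cores, CATCTG was called and the other 9 were not. CACCTG was in 26.5% of members and 18.1% of flanks (exact McNemar test, adjusted p = 0.144 over the 10 cores), CAGCTG in 16.3% and 9.30% (adjusted p = 0.144), CATATG in 11.2% and 5.58% (adjusted p = 0.144), and CACATG in 14.9% and 16.3% (adjusted p = 0.871). The call of CACCTG depended on the setting. Among the 28 motifs it passed in windows of 100 bp (exact McNemar test, adjusted p = 0.0254), outside repeats (adjusted p = 0.0190), and with the flank towards the start (adjusted p = 0.00356) or 5 kb into the gene (adjusted p = 0.0447). CAGCTG passed outside repeats (exact McNemar test, adjusted p = 0.0460) and with the flank 5 kb into the gene (adjusted p = 0.0302). The count of all hexamers, added after seeing the data, put the same letters first. Of 2080 hexamers counted with their reverse complements, 105 passed the threshold, a percentage of 5.05. The lowest p-values belonged to AGATGG (54.9% of members, 15.8% of flanks), the NeuroD E-box, the NFI short site, CTGGCA (45.6% of members and 14% of flanks) and CTGCCA (45.1% of members and 14.9% of flanks). AAAAAC was lower in members, with 2.79% against 17.7% of flanks (exact McNemar test, adjusted p = 0.000132), and so was AAAAAA, with 4.19% against 18.6% (adjusted p = 0.000378).

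**Figure D2:**
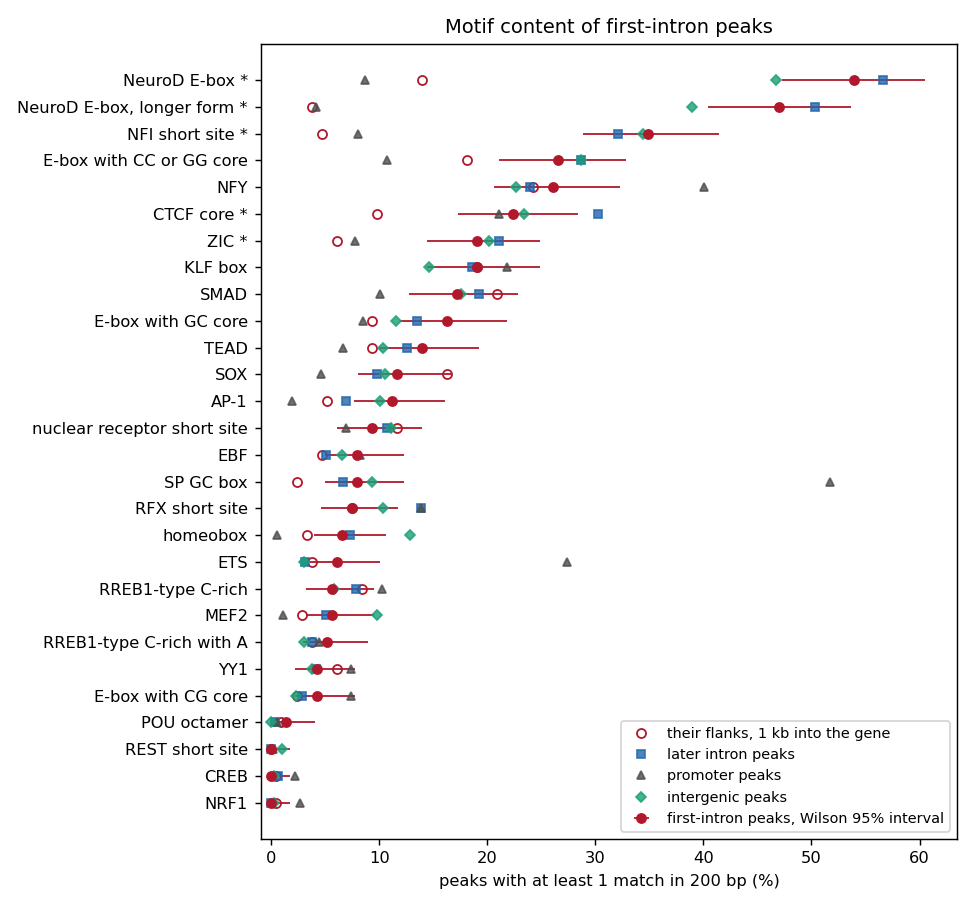
Share of peaks (%) with at least 1 match to each of 28 motifs in the 200 bp around the position. Filled red points are the 215 first-intron peaks with Wilson 95% intervals, open red circles their flanks 1 kb further into the gene, and squares, triangles and diamonds the later-intron, promoter and intergenic peaks. Asterisks mark the 5 motifs that differed between members and flanks, and the NeuroD E-box is highest at 54.0%.

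The E-boxes were centred on the listed positions. Their density was 4.74 matches per kb within 25 bp of the position and 0.777 per kb between 500 and 1000 bp, and for the NFI short site it was 2.23 and 0.558 per kb. This was not particular to first introns. The E-box had 5.66 and 0.953 per kb in later-intron peaks and 4.42 and 0.832 in intergenic peaks. For the NFI short site these were 2.45 and 0.569, and 2.46 and 0.563. In members with an E-box, the nearest one had its centre a median of 30.5 bp from the position, and in 78 of 116 (67.2%) it was within 50 bp. For the NFI short site the median was 46.5 bp. These distances count only members with a match inside the 200 bp window, which keeps them under 100 bp. The medians alone therefore do not show centring. The nearest E-box read CATCTG on the strand of the gene in 58 members and on the other strand in 58. The base before CATCTG was C in 100 of 116 (86.2%), and the base after it was T in 49 (42.2%), C in 34 (29.3%), G in 29 (25%) and A in 4 (3.45%). A single E-box was present in 89 members and 2 or more in 27.

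**Figure D3:**
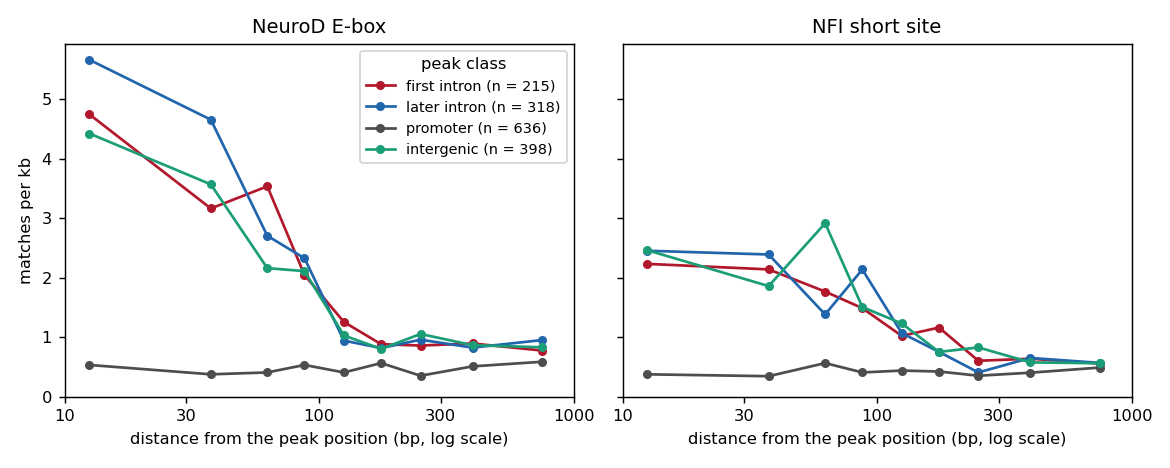
Matches per kb to the NeuroD E-box (left) and the NFI short site (right) against distance from the peak position (bp, log scale), each point at the middle of its distance bin, for 215 first-intron, 318 later-intron, 636 promoter and 398 intergenic peaks. The first-intron line falls from 4.74 to 0.777 per kb for the E-box and from 2.23 to 0.558 for the NFI short site. The later-intron and intergenic lines fall likewise, and the promoter line stays low in both.

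By motif content the members differed from the promoter peaks of the same list, and no difference from the other peaks away from promoters passed the threshold. Against the later-intron peaks 0 of 28 motifs passed the threshold, a percentage of 0, and 2 had an unadjusted p under 0.05. Those were the CTCF core (22.3% of members and 30.2% of later-intron peaks, Fisher's exact test, unadjusted p = 0.0472) and the RFX short site (7.44% and 13.8%, unadjusted p = 0.0251). Against the intergenic peaks 0 of 28 passed as well, a percentage of 0, and 2 had an unadjusted p under 0.05, the homeobox motif (6.51% and 12.8%, Fisher's exact test, p = 0.0188) and the POU octamer (3 members and no intergenic peak, p = 0.0428). The homeobox motif passed in a 100 bp window, with an odds ratio of 0.327 (Fisher's exact test, adjusted p = 0.0248). The NeuroD E-box was in 56.6% of later-intron peaks, an odds ratio of 0.898 (0.635 to 1.27), and in 46.7% of intergenic peaks, an odds ratio of 1.33 (0.957 to 1.86). These intervals leave room for differences of either sign.

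Against the 636 promoter peaks 15 of 28 motifs passed, a percentage of 53.6, of which 12 were more frequent in members and 3 less frequent. The NeuroD E-box was in 54.0% of members and 8.65% of promoter peaks, an odds ratio of 12.3 (8.36 to 18, Fisher's exact test, adjusted p = 8.18e-40). The NFI short site was in 34.9% and 8.02%, an odds ratio of 6.11 (4.10 to 9.11, Fisher's exact test, adjusted p = 7.37e-18). AP-1, the motif of Fos and Jun, was in 11.2% and 1.89% (odds ratio 6.39), the homeobox motif in 6.51% and 0.472% (odds ratio 13.0), and ZIC in 19.1% and 7.70% (odds ratio 2.82). Less frequent were the motifs of promoters. The SP GC box was in 7.91% of members and 51.7% of promoter peaks (odds ratio 0.0823, Fisher's exact test, adjusted p = 1.08e-32), the ETS motif in 6.05% and 27.4% (odds ratio 0.177, adjusted p = 2.07e-11), and NFY in 26% and 40.1% (odds ratio 0.529, adjusted p = 0.00183). Composition moved with all of these, since a GC content of at least 55% was found in 40.9% of members and 83.3% of promoter peaks. Among peaks with GC between 45 and 55%, 5 motifs passed against promoter peaks, and the odds ratio of the NeuroD E-box was 6.81 (Fisher's exact test, adjusted p = 1.04e-08). In windows of 400 bp it was 7.84.

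Of 9 comparisons of sequence context, 3 passed, a percentage of 33.3, and all 3 were against promoter peaks. Beside GC content, a CpG ratio (observed over expected CpG) of at least 0.6, as in CpG islands, was found in 9 members (4.19%) and 499 promoter peaks (78.5%, odds ratio 0.0127, Fisher's exact test, adjusted p = 1.54e-89). A position in a repeat was found in 22 members (10.2%) and 33 promoter peaks (5.19%, odds ratio 2.09, Fisher's exact test, adjusted p = 0.0452). Against later introns the GC share was 40.9% and 44.0% (odds ratio 0.882, 0.622 to 1.25), and against intergenic peaks 40.9% and 33.2% (odds ratio 1.40, 0.992 to 1.97). With windows of 1000 bp, a high CpG ratio was more frequent in members than in later-intron peaks (odds ratio 16.4, Fisher's exact test, adjusted p = 2.76e-05).

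Members near the start differed from promoter peaks too. The 32 members within 1 kb had a NeuroD E-box in 12 cases (37.5%, 22.9 to 54.7), against 8.65% of promoter peaks (odds ratio 6.39, 3.00 to 13.6, Fisher's exact test, adjusted p = 2.68e-05 over 3 tests). They had an NFI short site in 7 cases (21.9%, 11.0 to 38.8, odds ratio 3.34, 1.41 to 7.92, Fisher's exact test, adjusted p = 0.0154). A high CpG ratio was found in 6 of them (18.8%) and in 78.5% of promoter peaks (odds ratio 0.0675, 0.0281 to 0.163, Fisher's exact test, adjusted p = 1.60e-11). These 3 tests were chosen after the data were seen.

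Both motifs were more frequent in members far from the start. The NeuroD E-box was in 30 of 74 members within 5 kb (40.5%, 30.1 to 51.9) and in 86 of 141 beyond (61%, 52.8 to 68.7), an odds ratio of 2.27 (1.28 to 4.02, Fisher's exact test, p = 0.00605). The NFI short site, tested after the data were seen, was in 16 of the 74 (21.6%) and in 41.8% of the 141, an odds ratio of 2.56 (1.35 to 4.85, Fisher's exact test, p = 0.00403, adjusted p = 0.00605 over the 2 tests). By distance class, the E-box share was 37.5% within 1 kb, 42.9% from 1 to 5 kb, 56.3% from 5 to 20 kb, 67.8% from 20 to 100 kb and 54.5% of the 11 members beyond. GC content moved with distance, from a median of 58.8% within 1 kb to 48.5% beyond 100 kb. Among members with GC between 45 and 55% the odds ratio for the E-box was 1.96 (0.796 to 4.85, Fisher's exact test, p = 0.166), and with a limit of 1 kb it was 2.16 (p = 0.0544). Neither passed.

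**Figure D4:**
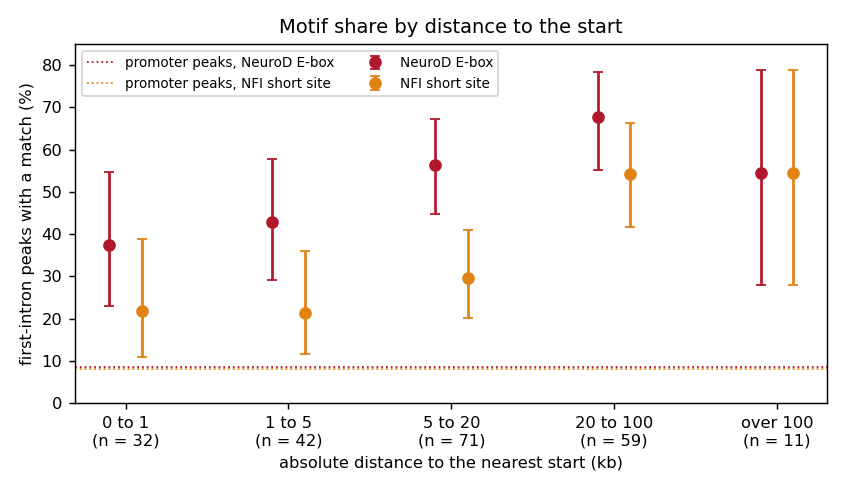
Share of first-intron peaks (%) with a NeuroD E-box (red) or an NFI short site (orange) in 5 classes of absolute distance to the nearest start (kb), with Wilson 95% intervals and the number of members under each class. The dotted lines are the promoter peaks of the same list, at 8.65% and 8.02%, and every class lies above them.

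The pairing of the 2 motifs within members did not pass its test. Both were in 46 members (21.4%), the E-box alone in 70, the NFI short site alone in 29 and neither in 70, so 145 members (67.4%) had at least 1. Members with an E-box had an NFI short site in 39.7% of cases and those without in 29.3% (odds ratio 1.58, 0.894 to 2.78, Fisher's exact test, p = 0.117). In later-intron peaks the odds ratio was 0.903 (0.563 to 1.45) and in intergenic peaks 1.36 (0.902 to 2.06). The pairing was examined after the data were seen.

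A small group of members stood apart in composition. In 11 members the window had a GC content under 20%, between 5.5 and 16.0%, while no member lay between 20 and 30%. Of these, 10 lay in repeats and none had a NeuroD E-box. The part of the repeats in these peaks was not tested, and how reads were placed in such windows could not be checked from the peak list. The group included Crybg1, Fbxo40, Tab2, a signalling adaptor of the TAK1 kinase, Kcnb2, a delayed rectifier potassium channel, Ncald, a neuronal calcium sensor, Spopl, Pla2g7, C5ar2, Ttc39c and Cfap97d2. Similar windows were 12 of 318 later-intron peaks (3.77%), 46 of 398 intergenic peaks (11.6%) and 0 of 636 promoter peaks, beside 5.12% (2.88 to 8.93) of members. The members with the lowest GC show long runs of A and T, and they hold neither of the motifs, so no letter is in capitals.

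Crybg1: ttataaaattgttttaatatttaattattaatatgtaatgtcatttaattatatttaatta
Fbxo40: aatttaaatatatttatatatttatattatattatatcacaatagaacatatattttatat

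Crybg1 is at chr10:44109306-44109366 and Fbxo40 at chr16:36984484-36984544, both on the minus strand. These members were chosen after their values were seen. Without the 11 members the NeuroD E-box was in 116 of 204 (56.9%).

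The share of genes with a first-intron peak was highest in the lists of ion channels and of synaptic vesicle and release genes. Per Mb of first intron the order was different, with 3.73 members in granule cell markers, 3.37 in synaptic vesicle and release genes, 2.54 in microtubule genes, 1.53 in regulators of Ras, MAP kinases and small GTPases and 1.16 in ion channels. Over all 18863 protein-coding genes with an intron, 215 (1.14%) had a member, and 42 members stood on at least 1 of 14 gene lists. The lists were chosen with earlier results known and got no test. They do not hold every gene of their kind. Nr2f1, a nuclear receptor, and Tbce, the tubulin chaperone, are members on no list. Each count below is over the genes of its list only. Long introns moved with the counts, so the members per Mb of first intron are given beside them, against 0.882 per Mb over all genes. A listed peak of any class was held by 1601 of the 18863 genes (8.49%). With a single row per gene, a gene whose listed peak lies elsewhere can have a first-intron peak that was not listed.

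Ion channel genes held 9 members of 87 (10.3%, 5.54 to 18.5), or 1.16 per Mb with a median first intron of 25.8 kb, and 25 of the 87 had any peak. The nearest to its start was in Scn2b, an auxiliary subunit of sodium channels, at 845 bp, with a NeuroD E-box at 36.5 bp and an NFI short site at 19.5 bp from the position. Kcnk3 was at 1.51 kb upstream and Kcnk1, another background potassium channel, at 11.4 kb. Kcnb2 was at 13.9 kb with a GC content of 10.0% in a repeat. The other 5 were Scn8a, Kcnn3, Dpp6, Cacna1c and Kcnip4, and 6 of the 9 had an E-box. Counted by the gene whose intron held the position, the list had 8 members, since Kcnk3 lay in Gm9899.

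Synaptic vesicle and release genes held 7 members of 73 (9.59%, 4.72 to 18.5), or 3.37 per Mb, and 4 of the 7 had an E-box. Sv2c, a vesicle glycoprotein, had a position at 1.30 kb in a window of 70.0% GC with no E-box. Dnm1 was at 9.09 kb with 2 E-boxes, the nearer at 5.5 bp from the position. Syt2 was at 13.9 kb with an E-box at 3.5 bp. Rims1, a scaffold of the active zone, was at 18.2 kb with none. Syn2, Syt9 and Amph completed the list.

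Postsynaptic receptors and scaffolds held 4 members of 87 (4.60%, 1.80 to 11.2), or 0.857 per Mb. They were Gabrd, the delta subunit of GABA-A receptors in granule cells, at 1.18 kb, Camk4, a calcium-dependent kinase, at 16.7 kb, Grip1 at 23.9 kb and Dlg2 at 193.6 kb. Grip1 alone had an E-box, at 23.5 bp. Genes of axon guidance and adhesion held 7 members of 132 (5.30%, 2.59 to 10.5), or 0.642 per Mb. The nearest were Cdh15, the M-cadherin, at 4.39 kb, Igsf9b, an adhesion protein of inhibitory synapses, at 6.5 kb, Cadm3 at 7.93 kb, and Unc5b, a netrin receptor, at 10.8 kb with an E-box at 21.5 bp. Sema6d, Ncam1 and Lsamp were the others, and 5 of the 7 had an E-box.

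The list of regulators of Ras, MAP kinases and small GTPases held 7 members of 119 (5.88%, 2.88 to 11.6), or 1.53 per Mb. They included Arhgap26, a GTPase-activating protein, at 11.7 kb, Spred2, an inhibitor of Ras signalling, at 15.0 kb with an E-box at 46.5 bp, and Map3k1 at 16.3 kb with 2 E-boxes. Dock4, an activator of Rac, was at 18.4 kb with none. Erbb4, Chn2 and Fgf14 were the others, and Fgf14 is the regulator of sodium channels named above. The list of microtubule genes, which lacks Tbce, held 5 members of 119 (4.20%, 1.81 to 9.46), or 2.54 per Mb. Map2 was at 277 bp with an E-box at 62.5 bp, and Tuba4a, an alpha-tubulin, at 771 bp with none. Map4, a microtubule-associated protein of many tissues, was at 1.51 kb with none, and Clip1, which tracks growing plus ends, at 4.28 kb with an E-box at 37.5 bp. Kif5c, a kinesin motor, was at 35.4 kb, and none of the 5 had an NFI short site.

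The list of transcription factors and chromatin genes, which lacks Nr2f1, held 2 members of 89 (2.25%, 0.618 to 7.83), or 0.737 per Mb. Of the 89, 27 had any peak. The 2 members were Cbfa2t3 at 987 bp with 2 E-boxes, and Nfia, which had neither motif. The list of autophagy, lysosome and trafficking genes held 0 members of 163, an upper bound of 2.3%, and 16 of them had any peak. The share over all genes, 1.14%, lies under that bound, so no depletion can be read from this list. None of 10 genes picked here because the study names them or their products was a member. Map1a, Stmn4 and Neurod1 had their listed peak at a promoter, Rreb1 had an intergenic one, Stmn2 had one in another class, and Lamp1, Ctsd, Sqstm1, Calb1 and Pcp2 had no row.

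The marker lists of cerebellar cell types were set beside the promoter of the transgene, which is that of Purkinje cells. Purkinje cell markers held 2 members of 52 (3.85%, 1.06 to 13.0), or 0.753 per Mb, Sv2c and Syt2, and 9 with any peak. Granule cell markers held 4 of 47 (8.51%, 3.36 to 19.9), or 3.73 per Mb, and 22 with any peak. These 4 were Gabrd, Nfia, Rbfox3, the neuronal antigen NeuN, at 26.2 kb, and Chn2, a Rac GTPase-activating protein, at 40.1 kb. The granule cell list also holds genes of neurons at large, such as Snap25, Tubb3, Stmn2 and Bsn. Its counts are therefore not particular to granule cells. Interneuron, Bergmann glia and astrocyte, oligodendrocyte and microglia markers held 0 of 20, 0 of 25, 0 of 25 and 0 of 24, with 0, 1, 3 and 1 genes with any peak. The upper bounds of these 0 counts were 16.1, 13.3, 13.3 and 13.8%. The share over all genes was 1.14%, so no difference from it can be read from lists of this size. By immunofluorescence for V5, the study found the transgene in Purkinje cells alone. The cell of origin of the signal was not tested here. Members on a list had an E-box in 24 of 42 cases (57.1%) and those on none in 92 of 173 (53.2%).

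**Figure D5:**
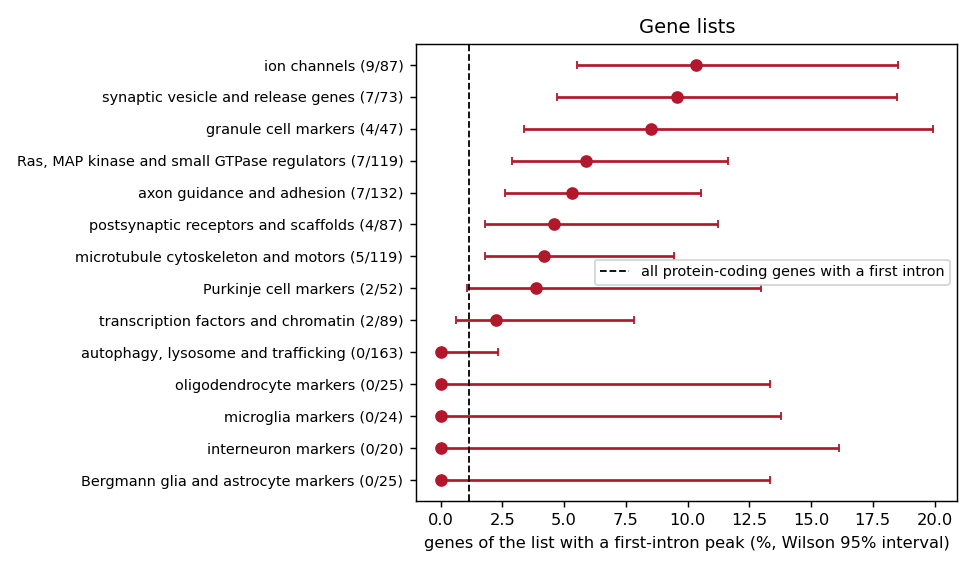
Share of genes (%) with a first-intron peak in each of 14 gene lists, with Wilson 95% intervals and, in brackets, members over genes of the list. The dashed line is the share over all protein-coding genes, 1.14%, and the ion channel list is highest at 10.3%.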

How the data were processed

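By the methods of the study, adapters were removed with fastp, and Bowtie2 placed the reads on mm10. Sambamba filtered out reads with several placements and duplicates, MACS3 called peaks with a q-value limit of 0.05, bedtools joined peaks that overlapped between samples, and HOMER annotated them. The sources used here give no versions. The values that the authors deposited are positions, distances in bp and annotation classes, with no count or score and with replicates merged, and each gene has 1 row.

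Positions were read on the GRCm38.p6 reference, whose chromosomes match mm10, with RefSeq transcripts and GENCODE vM21 starts. The distance recomputed from RefSeq was identical for 205 of 215 members (95.3%). Letters were searched on both strands in 200 bp windows with Python 3.11.15, pysam 0.24.0, SciPy 1.17.1, NumPy 2.4.6, pandas 2.3.3 and matplotlib 3.10.9. Members were compared with their flank by exact McNemar tests and with other classes by Fisher's exact test, two-sided, with Benjamini-Hochberg adjustment within each family (28 motifs against flanks, 84 against 3 classes, 10 cores, 2080 hexamers, 9 context tests) and a threshold of 0.05. Odds ratio intervals have 0.5 added to each count, and shares have Wilson 95% intervals. Both tests were run on simulated windows with a planted motif, in which members, flanks and the other class had the same base composition. That setting does not cover the difference in GC content between the real windows. The 398 intergenic peaks exclude 1 on an unplaced sequence.

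The members and lists were chosen with earlier results of these data known. Genes were named by rule: up to 4 members of each list nearest to the start, the 6 with the most E-boxes, the 4 nearest and 4 farthest, the 4 longest and 4 shortest introns, up to 5 in another gene's intron, and 10 genes of the study. Some genes that the rule names are not reported here. Alternatives changed the window, flank, GC range, repeats, distance limit and annotation.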

Additional observations from a re-analysis of the deposited data

How the results depend on the processing

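No paired analysis was possible because the peak list merges the libraries and holds no value of a single library, and leaving out a replicate could not be run for the same reason. Of the alternatives, 70 kept the direction and the side of the threshold or a count within 1.5 times, 7 moved a count further, 7 reversed an odds ratio that had not passed, 5 passed where the main comparison had not, and 2 no longer passed. Against the flanks, 8 motifs passed with the flank towards the start and 8 with the flank 5 kb into the gene, instead of 5, and 3 passed with GC within 5 percentage points of the flank. It was 5 to 7 in the other alternatives against the flanks, and in windows of 100 bp the CTCF core was lost and CAGGTG gained. Against intergenic peaks, 1 motif passed in windows of 100 bp and 2 in windows of 400 bp, instead of 0. Against promoter peaks, 5 passed with GC between 45 and 55% and 9 among peaks without a NeuroD E-box, instead of 15, and 11 to 15 in the other alternatives. The odds ratio of the NeuroD E-box was 0.911 against intergenic peaks with GC between 45 and 55% and 1.19 against later-intron peaks beyond 5 kb of the start. The odds ratio of a GC content of at least 55% against later-intron peaks was 1.36 in windows of 1000 bp, 1.05 with a GC limit of 60% and 0.558 beyond 5 kb. Against intergenic peaks it was 2.73 in windows of 1000 bp, 1.62 with a GC limit of 50% and 0.908 beyond 5 kb. The odds ratio of a high CpG ratio was 16.4 against later-intron peaks and 2.21 against intergenic peaks in windows of 1000 bp, and 0.190 and 0.0654 beyond 5 kb. The ratios of 16.4, 2.73, 1.62, 0.558 and 0.0654 passed the threshold. For the E-box by distance, the odds ratio was 2.16 with a limit of 1 kb and 1.96 with GC between 45 and 55%, and neither passed. The cause was not tested. Fewer peaks entered every restriction to a GC range or a distance. Peak height and depth were not analysed here, so nothing can be weighted by the strength of a peak, and an unlisted second peak of a gene could change its class.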
